A study of Homo sapiens with 16 samples.

Results

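The comparison described here sets RNA precipitated with an anti-NQO1 antibody from β-lapachone-treated HepG2 cells against RNA precipitated with the same antibody from untreated cells. It rests on 8 of the 16 arrays of the series, chosen by their labels and not by measured values: 4 arrays after the drug and 4 in regular medium. HepG2 is an established human hepatocarcinoma line. Treated cells received 10 µM β-lapachone for 30 min, and control cells regular culture medium. Cytoplasmic lysates were incubated with protein-A beads coated with a mouse antibody against NQO1, clone A180, and the recovered RNA, amplified with an oligo-dT primer, was read on single-colour Illumina expression arrays. The other 8 arrays of the series carried precipitates made with mouse IgG from the same 2 media, 4 arrays each, and serve below as the same drug comparison without a targeted protein. Whether the replicates were separate cultures is not stated in the labels. The p-values therefore cover only the spread between these arrays, and that spread may be technical.

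NQO1 is a cytosolic flavoenzyme that reduces quinones to hydroquinones with NADH or NADPH. β-lapachone is a quinone substrate of NQO1 whose reduced form reacts back with oxygen, so that the enzyme cycles, consumes pyridine nucleotides and generates reactive oxygen species. RNA immunoprecipitation recovers transcripts that stay with a protein in a lysate, together with RNA that sticks to beads or antibody, and also moves with how much of each transcript the lysate held. The title of the series names SERPINA1, which encodes the secreted protease inhibitor α1-antitrypsin. The comparison bears on whether the RNA recovered with NQO1 differs when the enzyme is turning over a substrate.

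The deposited table lists 47231 probes by manufacturer ID, and the files do not pair these IDs with genes. Probes were tested when their detection p was under 0.05 on at least 4 of the 8 anti-NQO1 arrays, which left 17380 probes. Another 22465 probes, or 47.6% of the table, were detected on none of the 8 arrays, and 6851 on all 8. A probe's level below is its log2 intensity after background correction and quantile normalization, and a difference is the level after β-lapachone minus the level in control medium. The levels of SERPINA1 and NQO1 transcripts and of hepatocyte markers were not analysed here.

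The 4 control arrays gave 18226, 17525, 14638 and 9101 detected probes in the order of their replicate numbers, and the 4 β-lapachone arrays 18023, 18455, 13099 and 19097. Control replicates 3 and 4 and β-lapachone replicate 3 thus lay below 16000 probes, and the other 5 arrays above. The group means, 17168.5 ± 2748.7 after the drug and 14872.5 ± 4149.2 in control medium (SD, n = 4 each), differed by less than either SD (exact permutation p = 0.429, two-sided, adjusted p = 0.571 over 4 array measures). The smallest p this test allows with 4 arrays against 4 is 0.0286. Median intensity averaged 136 after the drug and 113.75 in control medium (exact permutation p = 0.114, adjusted p = 0.457). The share of intensity above the array median that the 100 brightest probes held was 33.6% on control replicate 4 and between 9.91% and 15.4% on the other 7 arrays. Among the 5 arrays with over 16000 detected probes, pairs correlated across probes at r = 0.970 to 0.994. A pair with 1 array on each side of 16000 had r = 0.556 to 0.779, so arrays of unlike medium and like detection resembled each other more than replicates that differed in detection.

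**Figure D1:**
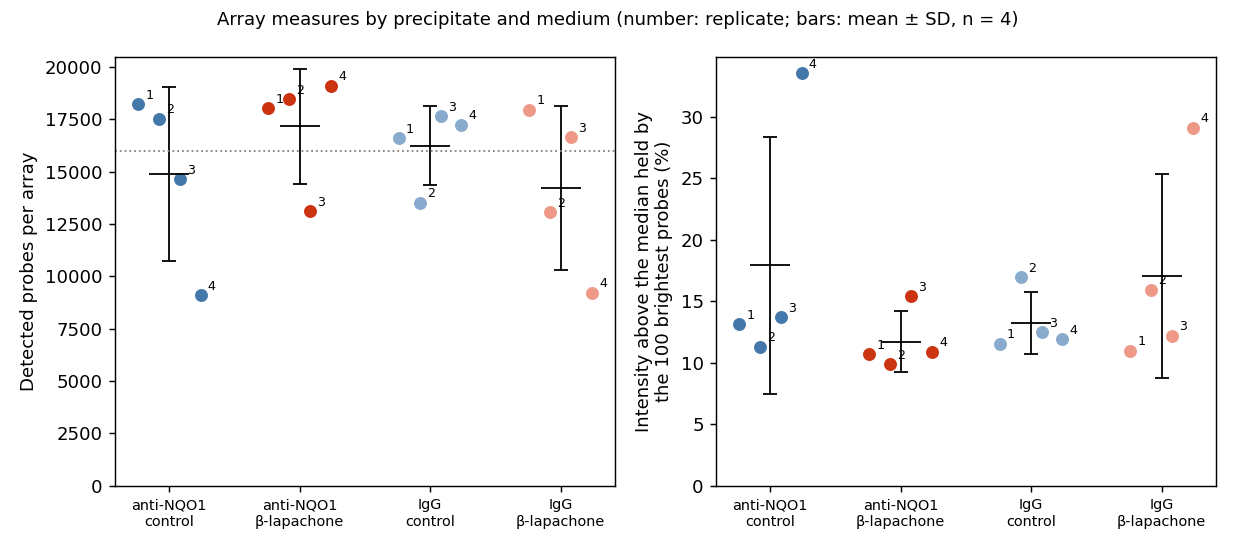
Number of detected probes (left) and share of the intensity above the array median held by the 100 brightest probes (right, in percent) on each of the 16 arrays, with replicate numbers, group means and SD (n = 4); the dotted line marks 16000 detected probes. Control replicate 4 of the anti-NQO1 precipitates, with 9101 detected probes, and β-lapachone replicate 3, with 13099, lie apart from the other arrays of their groups. Among the IgG precipitates, β-lapachone replicate 4 has the fewest detected probes, 9223.

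Across the 17380 probes the mean profiles of the 2 media correlated at r = 0.965. A transcript more abundant in the lysate and one better recovered by the antibody cannot be told apart within this comparison, nor can a change in all cells from one in some. By limma, with Benjamini-Hochberg adjustment over all probes tested, 0 probes passed an adjusted p of 0.05 (0% of those tested). The smallest adjusted p was 1.00. Before adjustment, 107 probes (0.616%) had a p under 0.05, 34 of them higher (0.196%) and 73 lower (0.42%) after β-lapachone, against the 869 that 5% of the tests would give. The half-width of a probe's 95% confidence interval was 1.34 (log2) at the median, which is 2.53-fold, with quartiles of 1.00 and 1.79. These intervals are not adjusted for the number of probes tested. The adjusted test was stricter: the probe of smallest p, with a difference of 2.39 (interval 1.46 to 3.32), did not pass it.

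The middle of the intensity range was the least precise. For the 5794 dimmest tested probes the median half-width of the interval was 1.08 (log2), for the 5793 of middle level 1.70, and for the 5793 brightest 1.29. The SD between the 4 control arrays had medians of 0.73, 1.39 and 0.82 in these bands, and between the 4 β-lapachone arrays 0.53, 0.98 and 0.65. Between β-lapachone replicates 1, 2 and 4 alone it was 0.16, 0.16 and 0.12. The SD of the β-lapachone group was thus lower in every band when replicate 3 was not counted.

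By fitted means, β-lapachone gave levels 2-fold or more above control medium for 1162 probes (6.69%) and 2-fold or more below it for 329 (1.89%), and the median difference over all tested probes was 0.12 on the log2 scale. Of the 1162, 669 were of middle brightness and 94 dim. These counts moved when most of the single anti-NQO1 arrays were left out. The probe filter was applied anew to the remaining arrays, so between 16342 and 17176 probes were tested each time. Without control replicate 4 they fell to 113 higher and 185 lower, with the median difference at 0.01, so that the balance turned. Without control replicate 1 they were 2567 and 1317, without control replicate 2 2446 and 1158, and without β-lapachone replicate 3 3007 and 1466. Without control replicate 3 they were 1159 and 407. Leaving out β-lapachone replicate 1, 2 or 4 lowered them to between 583 and 610 higher and between 201 and 220 lower. The count at an unadjusted p under 0.05 moved from 107 to 308 without β-lapachone replicate 3. Without control replicates 1, 2 and 3 it was 225, 173 and 182, and without control replicate 4 it was 111. Without β-lapachone replicates 1, 2 and 4 it was 44, 38 and 47. It was 192 without β-lapachone replicate 4 of the IgG precipitates, an array that enters only the normalization and the pooled spread. Median centring in place of quantile normalization moved the median difference to 0.68 and the counts to 4979 higher and 4 lower. The size of the median difference and the balance of 2-fold counts thus depended on the scaling, while the median stayed above 0 in each scaling tried. It was -0.011 with array weights in the fit and, over all 47231 probes without a detection filter, -0.013.

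**Figure D2:**
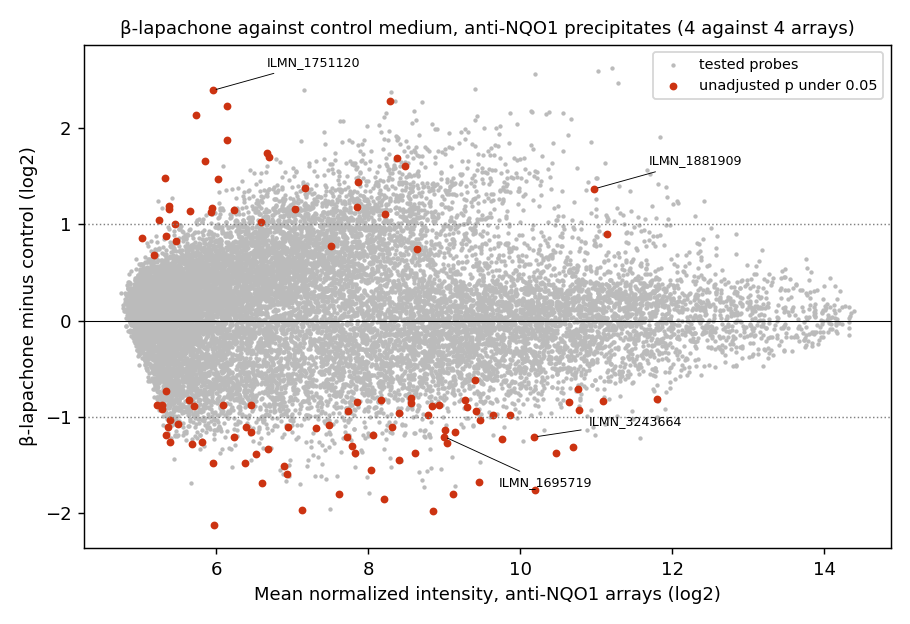
Difference between β-lapachone and control medium (log2, vertical) against mean normalized intensity over the 8 anti-NQO1 arrays (log2, horizontal) for the 17380 tested probes, with the 107 probes at an unadjusted p under 0.05 in red, the 4 named probes labelled and dotted lines at 2-fold. The grey cloud is widest in the middle of the intensity range, where many differences over 2-fold did not reach an unadjusted p under 0.05.

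**Figure D3:**
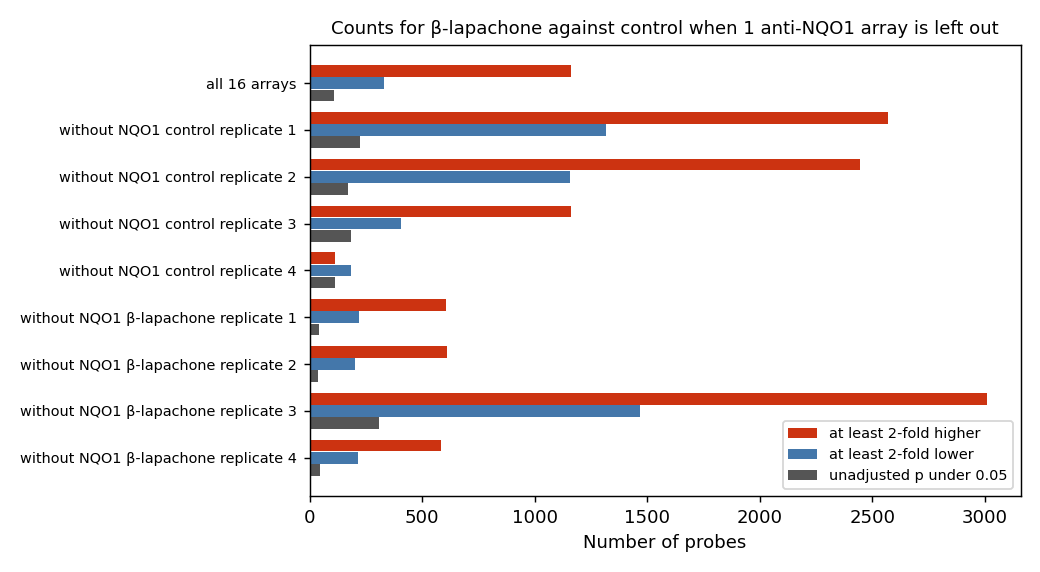
Number of probes at least 2-fold higher, at least 2-fold lower and at an unadjusted p under 0.05 for β-lapachone against control medium, with all 16 arrays and with each anti-NQO1 array left out. The count of higher probes runs from 113 without control replicate 4 to 3007 without β-lapachone replicate 3. With 1 array left out the probe filter was applied anew, leaving 16342 to 17176 tested probes.

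The probes leading the higher and the lower values differed in control level and detection. Of the 34 probes with higher values at an unadjusted p under 0.05, 4 were detected on all 8 arrays, and their median level in control medium was 5.37. Of the 73 with lower values, 54 were detected on all 8, and their median control level was 8.58, against 6.88 for all tested probes. Among all tested probes, 39.4% were detected on all 8. In these lists, higher values came mostly from probes near background in control medium and lower values from well-detected ones. The control levels also enter the difference by which the lists were picked. Picking by it favours low control levels among higher probes and high ones among lower probes, so the contrast only describes the lists. The median differences of the higher and the lower list were 1.17 and -1.12 on the log2 scale. The detection filter can pass a probe through 1 group alone: 6 of the 107 were detected on all arrays of 1 medium and none of the other. Among all 17380 tested probes, 24 were detected so after β-lapachone alone and 4 in control medium alone.

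ILMN_1751120 led the higher values. Its deposited intensity was 125.8, 145.1, 113.1 and 84.7 on control replicates 1 to 4, with detection only on replicate 2. After β-lapachone it was 249.4, 367.8, 279.5 and 318.9, detected on all 4 arrays. Every β-lapachone array lay above every control array before any processing. After normalization the control levels ran from 4.45 to 5.11, and the β-lapachone levels were 6.71, 6.77, 8.30 and 6.82, with replicate 3 highest although its deposited intensity was not. The difference was 2.39 (SE 0.44, 95% interval 1.46 to 3.32, adjusted p = 1.00 by limma). The control side of this difference was above background on 1 array of 4. On the arrays with over 16000 detected probes alone the means differed by 1.82. Those with fewer were 1 β-lapachone array, replicate 3, and 2 control arrays, neither of which detected the probe. It was at least 4.43-fold higher there, a bound that sets undetected control values no lower than the dimmest detected probe of their array. The bound takes the normalized level of replicate 3 as it stands. Without background correction the difference was 0.95. The call on this probe depended on the fit: by limma it passed with median centring (2.56, adjusted p = 0.0125), z score scaling (adjusted p = 0.0024), the number of detected probes as a covariate (adjusted p = 0.0167), 1 and 2 principal components (adjusted p = 0.0129 and 0.00839) and array weights (adjusted p = 3.3e-08). In the other settings, apart from the subset of 10 arrays described below, its adjusted p ran from 0.406 to 1.00.

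The second probe with higher values, ILMN_1881909, was bright in every group and detected on all 16 arrays. Its control intensities were 1189.6, 2076.6, 1189.4 and 170.4, and those after β-lapachone 4645.6, 5860.5, 2487.4 and 5942.1. Normalized levels were 10.03, 10.63, 10.22 and 10.30 in control medium and 11.87, 11.62, 11.16 and 12.01 after the drug. The groups did not overlap. The difference was 1.37 (SE 0.30, 95% interval 0.72 to 2.01, adjusted p = 1.00 by limma), and it was 1.50 on the arrays over 16000 detected probes and 0.90 on those under. Leaving out any 1 of the 16 arrays kept it between 1.26 and 1.52, while median centring, which moved the median of all probes up, gave 2.44. With 2 principal components in the fit it passed (adjusted p = 0.0163 by limma).

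ILMN_3243664 led the lower values and was likewise detected on all 8 arrays. Its control intensities were 1995.3, 2249.8, 1421.7 and 272.2, against 1061.3, 1496.7, 794.3 and 1456.8 after β-lapachone. The deposited values overlapped between the media, with control replicate 4 the lowest of the 8. The normalized levels, 10.88, 10.76, 10.48 and 11.05 in control medium and 9.49, 9.38, 9.69 and 9.76 after the drug, did not overlap. The difference was -1.21 (SE 0.30, 95% interval -1.85 to -0.57, adjusted p = 1.00 by limma). It was -1.27 on the arrays over 16000 detected probes and -1.07 on those under, and passed with 2 principal components in the fit (-1.12, adjusted p = 0.00873 by limma).

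ILMN_1695719, second among the lower values, had levels of 9.73, 9.68, 9.38 and 9.62 in control medium and 8.43, 7.92, 8.74 and 8.50 after β-lapachone, again with no overlap. Its deposited intensities were 1010.2, 1198.5, 660 and 130.6, and 593.3, 659.8, 379.7 and 729.8. The difference was -1.21 (SE 0.33, 95% interval -1.91 to -0.50, adjusted p = 1.00 by limma), with -1.42 on the arrays over 16000 detected probes and -0.76 on those under. For both lower probes the difference depended on the scaling: median centring gave -0.17 for ILMN_3243664 and -0.10 for ILMN_1695719, beside a median of 0.68 over all tested probes.

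**Figure D4:**
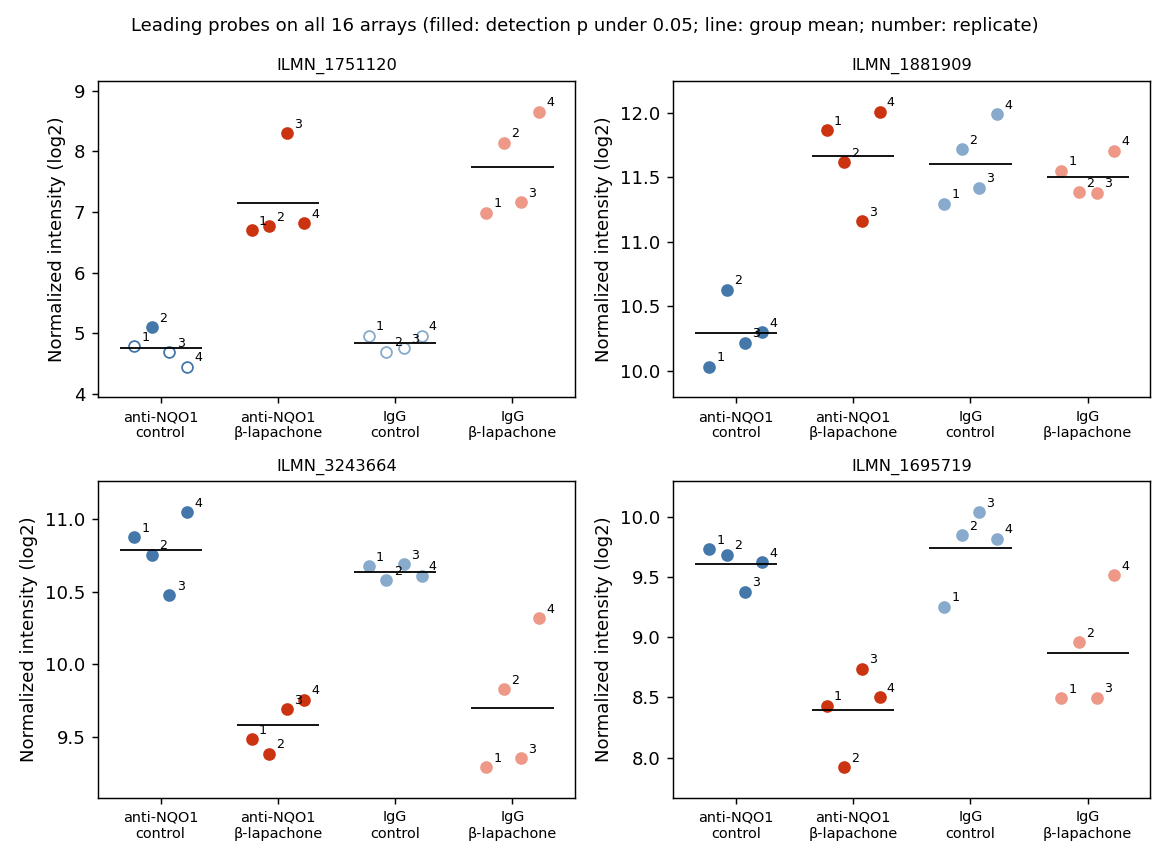
Normalized intensity (log2) of the 2 leading probes with higher and the 2 with lower values after β-lapachone, on all 16 arrays by precipitate and medium, with replicate numbers and group means as lines; open points were not detected. In the anti-NQO1 precipitates the media do not overlap for any of the 4 probes, and for ILMN_1881909 the anti-NQO1 control arrays, at 10.03 to 10.63, lie below the other 12.

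The first 10 probes in each direction had differences from 1.16 to 2.39 (SE 0.30 to 0.65) and from -1.98 to -0.99 (SE 0.30 to 0.55) on the log2 scale. All 10 higher and 7 of the 10 lower probes did not overlap between the media, as against 207 (1.19%) of all tested probes, 95 higher (0.547%) and 112 lower (0.644%). These probes were picked by the same contrast, so the counts only describe them. Of the 10 higher probes, 2 were detected on no control array and have only a bound: they were at least 2.39-fold and at least 1.35-fold higher by group means, with undetected control values set no lower than the dimmest detected probe of their array. In the lower direction 9 of the 10 were detected on all 8 arrays. On the arrays over 16000 detected probes, 6 of the higher probes were detected on a control array, with differences by group means from 1.08 to 3.07, and the other 4 were at least 1.61-fold to at least 3.76-fold higher. On the arrays under 16000, which hold 1 β-lapachone array, 4 were detected on a control array, with differences from 0.90 to 3.28. The other 6 have only a lower bound, above 1-fold for 5 of them, the highest of these being at least 4.79-fold. For 1 the bound was 0.76, which does not show it to be higher there. The lower probes ran from -2.51 to -1.21 on the arrays over 16000 and, for the 9 detected after the drug, from -1.61 to -0.35 on those under.

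Presence and absence gave few probes. There were 24 probes detected on every β-lapachone array and on no control array, and 4 with the reverse pattern. The totals differed too, with 11070 probes detected on every β-lapachone array and 7079 on every control array, and the dimmest detected probe lay at 7.02 on control replicate 4 and between 4.92 and 5.29 on the other control arrays. Only 8 of the 24 had a bound above 1-fold, with a median of 1.30 and a highest value of 2.39. All 4 of the opposite kind had one, from at least 1.92-fold to at least 2.70-fold lower. Among the 5 arrays over 16000 detected probes, 280 probes were detected on all 3 β-lapachone arrays and neither control array, and 149 on both control arrays and none after the drug.

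The brightest transcripts differed by less than 2-fold. The 100 probes with the highest mean over the 8 arrays, at 13.71 to 14.39 on the log2 scale, had differences from -0.27 to 0.63 with a median of 0.03. Of these, 58 were higher and 42 lower, and 0 differed 2-fold. By limma 0 reached an unadjusted p under 0.05, against 0.616% of all tested probes. The media did not overlap for 4 of the 100, against 1.19% of all tested probes. Their intervals had a median half-width of 0.63. On control replicate 4 their median deposited intensity was 4952.25, against 19687.8 over the other 7 arrays, a gap that quantile normalization removes by construction.

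The IgG precipitates gave the same drug comparison where no protein was targeted, on arrays that the anti-NQO1 comparison does not use for its means. Most of the leading probes had a difference in the same direction there. Of the 107 probes at an unadjusted p under 0.05 in the anti-NQO1 precipitates, 92 (86.0%) had the same sign in IgG: 31 of the 34 higher and 61 of the 73 lower. Over all 17380 tested probes, 5734 (32.99%) had the same sign. The differences in the 2 precipitates correlated at r = -0.39 across all probes and r = 0.71 across the 107. These are descriptions: the probes share arrays and a normalization and are not independent. The pooled spread that picked the 107 includes the IgG arrays. In IgG, β-lapachone replicate 4 had 9223 detected probes, with 29.1% of the intensity above the median in the 100 brightest. Anti-NQO1 control replicate 4 had 9101 and 33.6%, and no other array lay under 10000. On the 10 arrays described below, which hold neither, 71.5% of all tested probes had the same sign. How far the arrays under 10000 moved the values over all probes was not tested. In IgG 203 probes (1.17%) reached an unadjusted p under 0.05, 61 higher (0.351%) and 142 lower (0.817%), and 0 (0%) passed limma's test. Of those, 185 (91.1%) had the same sign in the anti-NQO1 precipitates. The lists shared 31 probes, 28.97% of the anti-NQO1 and 15.3% of the IgG list, and all 31 agreed in sign. The share of 86.0% was 63.1% and 64.2% without control replicates 1 and 2, 59.4% without β-lapachone replicate 3, 62.7% without β-lapachone replicate 1 of the IgG precipitates, and 94.6% without control replicate 4.

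All 8 arrays after the drug, of either antibody, lay above all 8 control arrays in normalized level for 7 probes (0.0403%) and below them for 9 (0.0518%). ILMN_1751120 and ILMN_3243664 were among these 16. In IgG, ILMN_1751120 had deposited intensities of 128.2, 100.9, 114.4 and 124.3 in control medium, detected on 0 of 4 arrays, and 272.7, 193.5, 224.4 and 110.7 after the drug, detected on all 4. The deposited values overlapped through IgG replicate 4 after the drug, while the normalized levels, 4.70 to 4.96 and 6.99 to 8.66, did not. With the control side not above background, the probe was at least 6.10-fold higher after the drug in IgG by normalized group means. This bound covers the control side only and takes the normalized level of IgG replicate 4 after the drug as it stands. ILMN_3243664 had levels of 10.64 ± 0.05 in control medium and 9.70 ± 0.48 after β-lapachone in IgG (log2, SD, n = 4 each), a difference of -0.94. ILMN_1695719 gave 9.74 ± 0.34 and 8.87 ± 0.48 (n = 4 each), or -0.87, and there the media overlapped through IgG replicate 4 after β-lapachone, at 9.52. Of the first 10 higher probes 9 had the same sign in IgG, and of the first 10 lower ones all 10, with 6 and 9 at an unadjusted p under 0.05.

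ILMN_1881909 was the exception among the higher probes. In IgG it read 11.30, 11.72, 11.42 and 11.99 in control medium and 11.55, 11.38, 11.38 and 11.71 after β-lapachone, a difference of -0.10 (SE 0.30). The 4 anti-NQO1 control arrays were below all 12 others, which held for 5 probes of those tested (0.0288%), while 0 probes (0%) had these 4 arrays above the others. The drug difference was 1.47 larger in the anti-NQO1 than in the IgG precipitates (SE 0.43, 95% interval 0.56 to 2.38). It had the smallest p of all probes with a larger difference in the anti-NQO1 precipitates, at an unadjusted p of 0.00367 and an adjusted p of 0.775 by limma, and so did not pass. For the other 3 named probes the interval of this difference spanned 0: -1.82 to 0.82 for ILMN_1751120, whose IgG control level was not above background, -1.18 to 0.64 for ILMN_3243664 and -1.33 to 0.66 for ILMN_1695719. By limma, 0 probes (0%) passed the test of this difference between precipitates, and before adjustment 29 (0.167%) had a p under 0.05.

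Arrays with many detected probes gave a tighter comparison. The 10 arrays of the series with over 16000 detected probes, a limit chosen after seeing the data, held 3 β-lapachone and 2 control anti-NQO1 arrays and 2 and 3 IgG arrays. Normalized and fitted alone, they gave intervals with a median half-width of 0.72 (log2). By limma, 2 probes (0.0115%) passed an adjusted p of 0.05 in the anti-NQO1 precipitates, both higher after β-lapachone: ILMN_1751120, with a difference of 2.13 (SE 0.20, adjusted p = 0.0439), and a probe with the next smallest p after ILMN_1881909 among the higher values above, which no control array of these detected and which was at least 4.68-fold higher (adjusted p = 0.0439). The same 2 probes were the 2 that passed in the IgG precipitates (0.0115%). There ILMN_1751120 passed with an adjusted p of 0.0148 by limma and, being detected on 0 of the 3 control arrays, was at least 5.23-fold higher, and the second probe, detected on 2 of 3, had a difference of 2.59 (adjusted p = 0.0177 by limma). The second of these had deposited anti-NQO1 intensities of 131.6, 133.2, 131.4 and 85.9 in control medium, detected on 1 of 4 arrays, and 281.5, 385.6, 311.6 and 307.2 after the drug, detected on all 4.

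On these 10 arrays 846 probes (4.87%) reached an unadjusted p under 0.05, close to the 869 that 5% of the tests would give, with 191 higher and 655 lower. In the IgG precipitates 737 (4.24%) reached it. At least 2-fold differences fell to 102 higher (0.587%) and 211 lower (1.21%). Of the 846, 787 (93.0%) had the same sign in the IgG precipitates, against 71.5% of all tested probes, and the differences in the 2 precipitates now correlated at r = 0.63 across all probes. The sign of this correlation was thus opposite to that on all 16 arrays. All 107 probes described above kept their direction on the 10 arrays, which include 5 of the 8 used to pick them, and 83 stayed at an unadjusted p under 0.05. For ILMN_1881909 the difference was 1.44 in anti-NQO1 and -0.10 in IgG precipitates, with a difference between them of 1.54 (adjusted p = 1.00 by limma). None of the probes passed the test of the difference between precipitates on these arrays by limma (0 probes), where 96 (0.552%) reached an unadjusted p under 0.05.

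**Figure D5:**
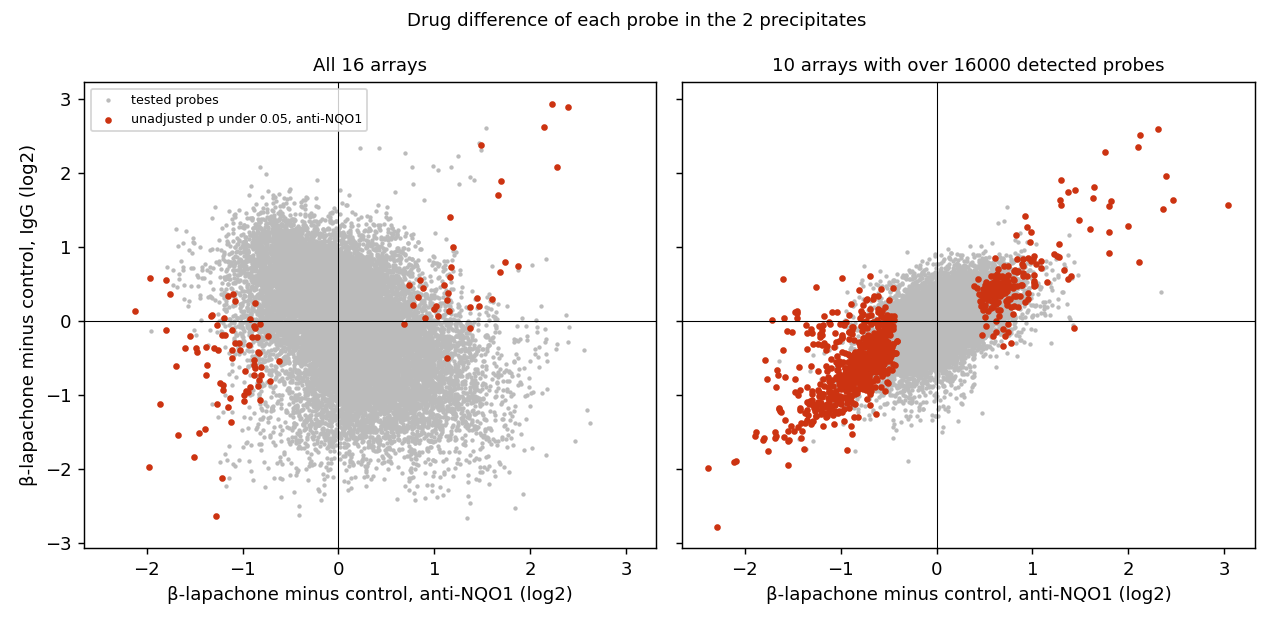
Difference between β-lapachone and control medium in the anti-NQO1 (horizontal, log2) and IgG precipitates (vertical, log2) for the 17380 tested probes, with probes at an unadjusted p under 0.05 in the anti-NQO1 precipitates in red, on all 16 arrays (left) and on the 10 arrays with over 16000 detected probes (right). The grey cloud slopes down on the left (r = -0.39) and up on the right (r = 0.63), while the red points lie mostly in the quadrants of equal sign in both, 92 of 107 and 787 of 846.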

How the data were processed

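Intensity values were deposited on a linear scale in 1 table of 16 arrays, under a name that calls them not normalized, and per the file headers a detection p-value follows each intensity. The submitters' processing notes list GenomeStudio 2011.1 without settings. Arrays were assigned to groups by title. With neqc in limma 3.58.1 (R 4.3.3), all 16 arrays were background-corrected using the detection p-values, given an offset of 16, quantile normalized and log2-transformed. A linear model with 4 group means (12 residual degrees of freedom, lmFit and eBayes) was fitted to the probes with detection p under 0.05 on at least 4 of the 8 anti-NQO1 arrays. Array measures were compared by exact permutation tests over 70 arrangements. The number of arrays limits the precision.

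The comparison, the probe filter and the alternatives were chosen with earlier results of these data known. Per direction, the 2 probes of smallest p are named and the first 10 summarised. The gene lists and markers planned were not analysed here, since 0 probe IDs matched the gene tables. In the anti-NQO1 groups, deviations of same-numbered arrays correlated at 0.85, 0.85, 0.75 and -0.60. The labels do not say whether equal numbers mark pairs. The main fit did not take them as pairs, and a fit with the replicate number as a block is given below.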

Additional observations from a re-analysis of the deposited data

Results flagged for a closer look

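Of 16 groups of 4 arrays examined (4 array measures and the 4 named probes, in each anti-NQO1 group), Dixon's test at 95% set 1 array apart in 3 groups, and chance alone sets one apart in 0.8 on average. On control replicate 4 the 100 brightest probes held 33.6% of the intensity above the median, against 13.7% on the next array. β-lapachone replicate 3 scored 134.2 on the first principal component of the 16 arrays, which held 68.5% of the variance, with the next array of its group at -105.7. For ILMN_1751120 this array again stood apart, with a level of 8.30 (log2) against 6.82 on the next.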

How the results depend on the processing

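The test of β-lapachone in the anti-NQO1 precipitates made 0 calls without background correction, without a detection filter, with the stricter filter, on the 8 anti-NQO1 arrays alone, with each of the 16 arrays left out in turn (0 to 0) and without the 2 arrays under 10000 detected probes. With the replicate number as a block it also made 0, with 111 probes under an unadjusted p of 0.05 by limma, and the share of those with the same sign in IgG was 74.8%. By deviations from the group means, 5 of 8 arrays correlated best with the array of their own number in the other medium. Calls were made with median centring (6), z score scaling (2), the number of detected probes as a covariate (12), 1 and 2 principal components (10 and 38), array weights (3929, with weights from 0.0592 to 19.2, whose estimation stopped before it converged) and the 10 arrays (2). ILMN_1751120 passed in each of these. ILMN_1881909 and ILMN_3243664 passed with 2 components (adjusted p = 0.0163 and 0.00873 by limma) and, like ILMN_1695719, with weights. Array weights alone gave calls, 60, for the difference between precipitates. Unadjusted p under 0.05 was reached by 523 probes with median centring, 835 with no filter (of 47231), 6091 with weights, 885 with the covariate, 682 and 1928 with 1 and 2 components, 846 on the 10 arrays, 241 without the 2 arrays, and 38 to 308 with 1 array left out. Probes 2-fold or more higher and lower numbered 4979 and 4 with median centring, 224 and 43 with no background correction, 411 and 209 with weights, 175 and 155 with 1 component, 156 and 155 with 2, 102 and 211 on the 10 arrays and 116 and 189 without the 2. The higher ones were 613 with the stricter filter (11298 probes tested) and 157 with the covariate, and the lower ones 633 with z scores. With 1 array left out they ran from 113 to 3007 and from 185 to 1466. The share with the same sign in IgG was 58.7% with no filter, 63.0% with weights, 95.03% with the covariate, 94.4% and 94.1% with components, 93.0% on the 10 arrays, 95.4% without the 2, and 59.4% to 94.6% with 1 array left out. The 4 named probes kept their sign in all of these. A stricter filter and fewer arrays change counts by construction, and the cause of the other differences was not tested. The 10 arrays and the omission of 2 arrays were chosen after seeing the data.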
